A study of Mus musculus with 3 samples.

Results

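The ribosomal protein genes encode the protein parts of the small and the large subunit of the cytoplasmic ribosome, the machine that translates mRNA. Their transcripts are among the most abundant of nearly every cell, and a cell that grows or divides makes more ribosomes. Many of these mRNAs begin with a C and a run of pyrimidines, the TOP (terminal oligopyrimidine) motif, through which the growth kinase mTOR controls their translation. The genes were chosen by symbol: names that start with Rps or Rpl and a digit, the stalk proteins Rplp0, Rplp1 and Rplp2, and Rpsa, without the Rps6k kinases and names marked as pseudogenes. This gave 86 of the 32285 genes in the files, of which 31 were classed as small-subunit genes, 46 as large-subunit genes and 9 as paralogs or look-alike names. Rps19bp1, a binding partner of Rps19 and not a ribosomal protein, is in by its name alone.

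The study followed the mouse knee synovium and infrapatellar fat pad, the soft tissue that lines and cushions the joint, after DMM, an operation that loosens the medial meniscus and is used to model osteoarthritis that follows an injury. There were 3 droplet-based single-cell libraries of live-sorted cells, all of wt genotype: DMM at 2 months of age with harvest after 1 week, DMM at 2 months of age with harvest after 2 months, and control mice of 2 months of age. Each library combined the tissue of 5 to 10 mice, so there was 1 library per group, no replicate and no test between groups, and an effect of the condition cannot be told apart from any other difference between the libraries. The 2-month group was also older than the control, and a sham operation, strain and sex are not given in the sources used here. Intervals below are exact 95% intervals for counting error only, not for the spread between mice, and both operated libraries were set against the same control library.

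A barcode was kept from 500 genes upward if mitochondrial UMIs (unique molecular identifiers, each standing for 1 captured transcript) made up no more than 10%, and those kept numbered 12316 at 1 week, 9782 at 2 months and 8099 in the control, with medians of 12920, 13543 and 10871 UMIs. Cells were classed by marker UMIs. Fibroblasts, with Pdgfra but no Ptprc or Cdh5, numbered 4748 at 1 week, 5317 at 2 months and 3781 in the control. Endothelium, with Cdh5 but no Ptprc, numbered 1784, 1157 and 1270 cells, a mural gate, with Notch3 but none of these, 711, 423 and 694, and macrophages, with at least 3 C1qa UMIs, 1969, 894 and 1101, in the same order of libraries. All 7 markers of each of fibroblasts, mural cells and macrophages and all 6 of endothelium were detected in their own class in every library. These lists include the gate genes. The 7 mural and 7 macrophage markers were also detected in each of the other classes, so detection alone does not tell the classes apart. The gates were not equally clean: in the mural gate the 7 mural markers summed to 13788, 27400 and 33154 CPM (a gene's UMIs as parts per 1000000 of the class) at 1 week, at 2 months and in the control, and the 7 fibroblast markers, 6 of them detected with Pdgfra at 0 by the gate, to 14444, 4786 and 2748 CPM. Between 32 and 84 barcodes per library fell into more than 1 class, and 28 to 33 barcodes occurred in each pair of libraries.

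At 1 week after DMM the ribosomal protein genes took a larger share of the transcripts than in the control in all 4 classes, and at 2 months a smaller share than at 1 week in all 4. In fibroblasts, the matrix-building cells of the lining and sublining, they held 16.1% of UMIs at 1 week (95% interval 16.10 to 16.12), 11.6% at 2 months (11.60 to 11.61) and 13.4% in the control (13.37 to 13.39). The ratio to the control was 1.20 at 1 week and 0.867 at 2 months, so the 2-month fibroblasts lay below both other libraries. In endothelium the share was 17.4% at 1 week, 14.0% at 2 months and 15.3% in the control, ratios of 1.13 and 0.916. Macrophages had 14.3%, 10.6% and 11.3% in the same order, ratios of 1.26 and 0.934. The mural gate stood apart in size: 15.8% at 1 week and 9.85% at 2 months against 9.46% in the control, ratios of 1.67 (1.665 to 1.676) and 1.04 (1.037 to 1.045). From 1 week to 2 months the ratio of 2 months over 1 week was 0.720 in fibroblasts, 0.807 in endothelium, 0.623 in the mural gate and 0.740 in macrophages. In each library endothelium had the highest share of the 4 classes, and the mural gate the lowest at 2 months and in the control, while at 1 week the macrophages were lowest.

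**Figure D1:**
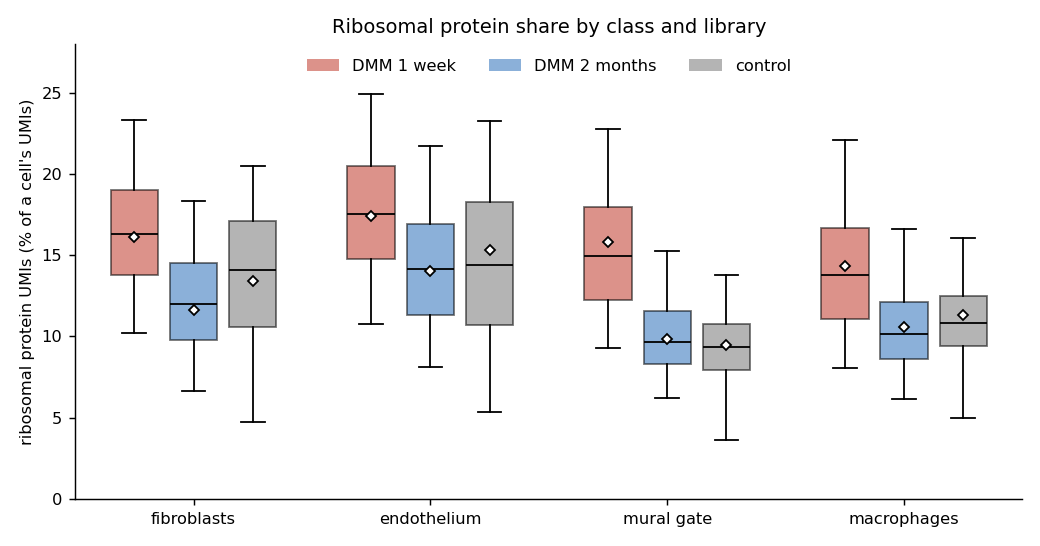
Share of a cell's UMIs from ribosomal protein genes (vertical axis, percent) in 4 cell classes and 3 libraries. Boxes give the quartiles and the median over cells, whiskers the percentiles 5 and 95, and diamonds the share of the summed UMIs. Every 1-week box is centred above the other 2 of its class, and the boxes overlap in every class except the mural gate, where the lower quartile at 1 week (12.2%) is above the upper quartiles at 2 months (11.6%) and in the control (10.8%).

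Cell by cell the distributions overlapped. The median share of a fibroblast was 16.3% at 1 week, with quartiles of 13.8% and 19.0%. At 2 months it was 12.0%, with quartiles of 9.76% and 14.5%, against 14.1% in the control, with quartiles of 10.6% and 17.1%. The lowest 5% of fibroblasts lay under 10.2% at 1 week, under 6.66% at 2 months and under 4.74% in the control, so the control fibroblasts reached the lowest shares. In endothelium the medians were 17.5%, 14.1% and 14.4% at 1 week, at 2 months and in the control, so the gap between 2 months and the control was smaller per cell than in the summed UMIs. With every cell given equal weight that ratio was 1.00 in place of 0.916, so the gap to the control depended on the weighting.

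Both subunits had similar ratios. In fibroblasts the 31 small-subunit genes made up 7.03% of UMIs at 1 week, 5.03% at 2 months and 5.77% in the control, and the 46 large-subunit genes 8.88%, 6.43% and 7.47%. Their ratios to the control were 1.22 and 1.19 at 1 week, and 0.870 and 0.861 at 2 months, for the small and the large subunit. The small subunit's part of all ribosomal protein UMIs was 43.7% at 1 week, 43.3% at 2 months and 43.1% in the control. In the mural gate that part was 43.1%, 42.5% and 41.7%. The 9 paralogs and look-alikes were under 0.2% of fibroblast UMIs in each library, at 0.199% at 1 week, 0.148% at 2 months and 0.139% in the control.

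Measures other than the ribosomal protein genes differed between the libraries as well. Of fibroblasts, 17.7% had a UMI of the division genes Mki67 or Top2a at 1 week, 3.82% at 2 months and 2.64% in the control, and in the mural gate these shares were 22.6%, 3.78% and 1.73%. Mitochondrial UMIs of fibroblasts were 3.79% at 1 week, 3.65% at 2 months and 1.92% in the control. All 7 fibroblast markers were also detected in endothelium and macrophages of every library, summing to 16015, 6434 and 7509 CPM in endothelium and to 8923, 4572 and 3821 CPM in macrophages at 1 week, at 2 months and in the control. In fibroblasts they summed to 54019, 27774 and 27860 CPM, so this sum was highest at 1 week in each of these classes. The 3 chondrocyte markers had 376, 27.8 and 1.796 CPM in fibroblasts. The part of these transcripts in the shares was not tested. Without the cells with a UMI of Mki67 or Top2a the 1-week ratio of the ribosomal protein share was 1.22 in fibroblasts and 1.64 in the mural gate; a cell in division may have no such UMI, so the part of division was not tested. Barcodes that failed the filter held 7.60% ribosomal protein UMIs at 1 week, 6.36% at 2 months and 6.02% in the control. Passed barcodes outside all 4 classes held 17.0%, 11.4% and 11.6%, so the 1-week library was highest there too; the part of library-wide differences in these results was not tested.

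Depth per cell differed as well, and the 1-week fibroblasts were above the other libraries at every depth. Among fibroblasts with 5000 to 10000 UMIs the share was 17.1% at 1 week (394 cells), 13.2% at 2 months (833 cells) and 13.6% in the control (638 cells). Among those with 10000 to 20000 UMIs it was 17.0%, 12.9% and 14.5%, and above 20000 UMIs 15.04%, 10.6% and 11.3%. Below 5000 UMIs the order of the other libraries turned: 14.2% at 1 week (52 cells), 12.6% at 2 months (256 cells) and 11.1% in the control (257 cells). Fibroblasts above 20000 UMIs, the deepest cells, had lower shares than those of 5000 to 20000 UMIs in all 3 libraries.

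Fibroblasts were then split by genes that mark parts of the tissue, with gates that may overlap. Cells with Clic5, a gene of the lining layer, had a lower ribosomal protein share than the fibroblasts as a whole in each library, 12.5% at 1 week, 10.1% at 2 months and 11.7% in the control. They were 7.92% of fibroblasts at 1 week, against 33.6% at 2 months and 43.6% in the control, so the makeup of the fibroblast class also differed. Cells with Pi16 or Dpp4, genes of progenitor-like fibroblasts, had 15.9%, 12.2% and 13.5% in the same order of libraries, and cells with Gdf10, a growth factor gene, 16.4%, 12.9% and 15.3%. Fibroblasts with none of the gate genes had 17.8%, 12.9% and 15.4%, the highest gate at 1 week and in the control and level with the Gdf10 cells at 2 months. Cells with Thbs4, the gene of a matrix protein, had 15.9%, 11.5% and 11.7%, and cells with at least 5 UMIs of Acta2, the actin of contractile myofibroblasts, 15.4%, 11.4% and 12.0%. Fibroblasts with a UMI of Mki67 or Top2a had 15.3% at 1 week, 10.97% at 2 months and 12.7% in the control. A gate of 1 UMI also picks deeper cells: the median was 20487.5, 23700 and 15099 UMIs for Mki67 or Top2a, 18612.5, 24024.5 and 15286 for Clic5, and 14092.5, 12696 and 11583 for none of the gate genes, against 16492, 16085 and 13153 for all fibroblasts. The share was lower in the deepest cells, and the part of depth in the differences between gates was not tested. Cells with Acan, the cartilage proteoglycan, numbered 2465 at 1 week, 389 at 2 months and 2 in the control, with 15.95%, 11.2% and 10.1%. Within each gate the 1-week library was above the control, by little in Clic5 and Gdf10 cells and by more in Thbs4 and Acta2 cells. With at least 2 UMIs of Thbs4 the order of the others turned, with 11.7% at 2 months against 11.4% in the control.

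**Figure D2:**
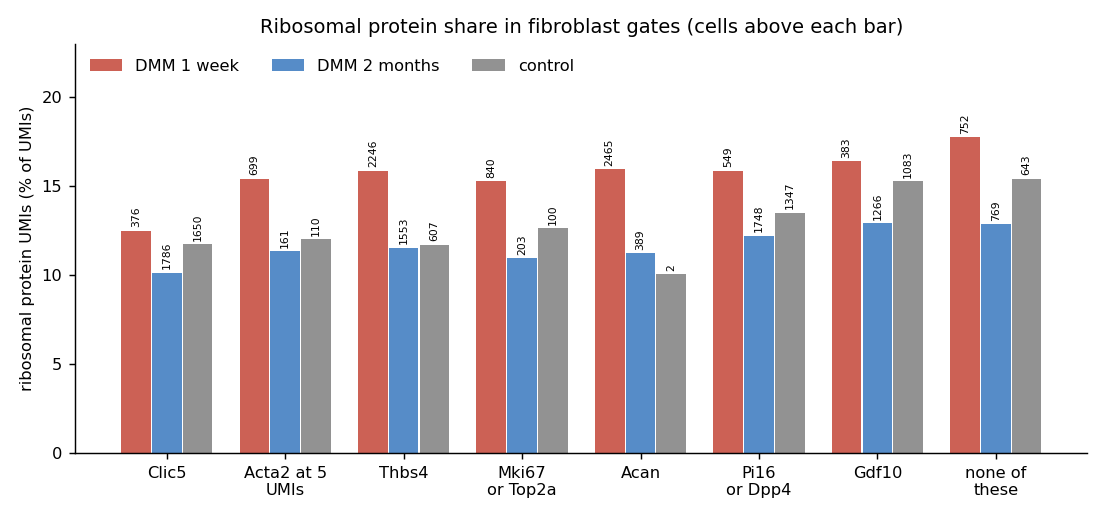
Ribosomal protein UMIs (vertical axis, percent of all UMIs) in fibroblasts that carry the gate genes named on the horizontal axis, by library. Bars start at 0, and the number above each bar is its number of cells. The 1-week bar is the highest of each trio, and the 2-month bar the lowest except in the Acan gate, where the control bar holds 2 cells; at 2 UMIs of Thbs4 the 2-month value (11.7%) is above the control (11.4%).

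Gene by gene, 84 of the 86 members had at least 50 UMIs in the sums compared, and a member is counted as higher or lower below when its CPM was at least 25% above that of the library it was set against, or at most 0.8 times that value. The other members were Rpl3l, the form of Rpl3 in striated muscle, with 2, 3 and 4 UMIs in fibroblasts at 1 week, at 2 months and in the control, and Rpl10l, the testis form of Rpl10, with 0 UMIs in all 3, where a floor of 3 counts, used in place of an interval, allows up to 0.0351, 0.0307 and 0.0555 CPM. At 1 week 34 of 84 members (40.5%) were higher and 2 lower in fibroblasts, beside 30.4% and 28.5% of all 14582 genes tested. With the 100 most abundant other genes left out of the denominator, a setting chosen after seeing the data, 20 members were higher. The members were narrower in spread than all genes and centred higher: the median log2 ratio of members was 0.28, against 0.02 over all genes, 73 members lay above 0, and their quartiles ran from 0.14 to 0.42, against -0.40 to 0.44 over all genes. In endothelium 23 members (27.4%) were higher and 3 lower, beside 28.1% and 26% of all genes, with a median of 0.18 against 0.02. The share higher there was thus close to that of all genes, and the share lower was smaller. With every cell given equal weight 37 were higher in endothelium. In macrophages 47 were higher and 1 lower, beside 25% and 31.7%, with a median of 0.35 against -0.06. In the mural gate 77 were higher and 1 lower, beside 32.9% and 32.9%, with a median of 0.72 against -0.00.

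At 2 months few members passed the fold against the control. In fibroblasts 2 were higher and 13 lower, beside 23.6% and 18.5% of all genes, and 71 members lay below 0, with a median log2 ratio of -0.19 against 0.02. Endothelium had 3 higher and 7 lower members, beside 24.9% and 14.5%, and a median of -0.14 against 0.06. Macrophages had 3 higher and 5 lower, beside 22.5% and 19.1%, and a median of -0.11 against 0.01. The mural gate had 5 higher and 3 lower, beside 23.8% and 22.8%, and a median of 0.05 against -0.01. In every class both counts, as shares of the 84 members, were below the share of all genes. The counts of lower members depended on the setting, with 7 with equal weight or thinning and 8 with 5000 to 20000 UMIs in fibroblasts, 4 with equal weight and up to 12 under other settings in endothelium, 0 without paralogs in the mural gate, and 3 without paralogs in macrophages.

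Between the operated libraries the steps were larger. At 2 months over 1 week, 62 members were lower in fibroblasts, beside 25.4% of all genes, and 37 in endothelium, beside 20.1%. In the mural gate 72 were lower, beside 27.8%, and in macrophages 58, beside 20.6%. The member with the highest ratio in each of the 4 classes was Rpl10, a large-subunit protein that joins late in assembly. In fibroblasts it had 1435 CPM at 2 months against 1174 CPM at 1 week, a ratio of 1.22 (1.21 to 1.23).

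**Figure D3:**
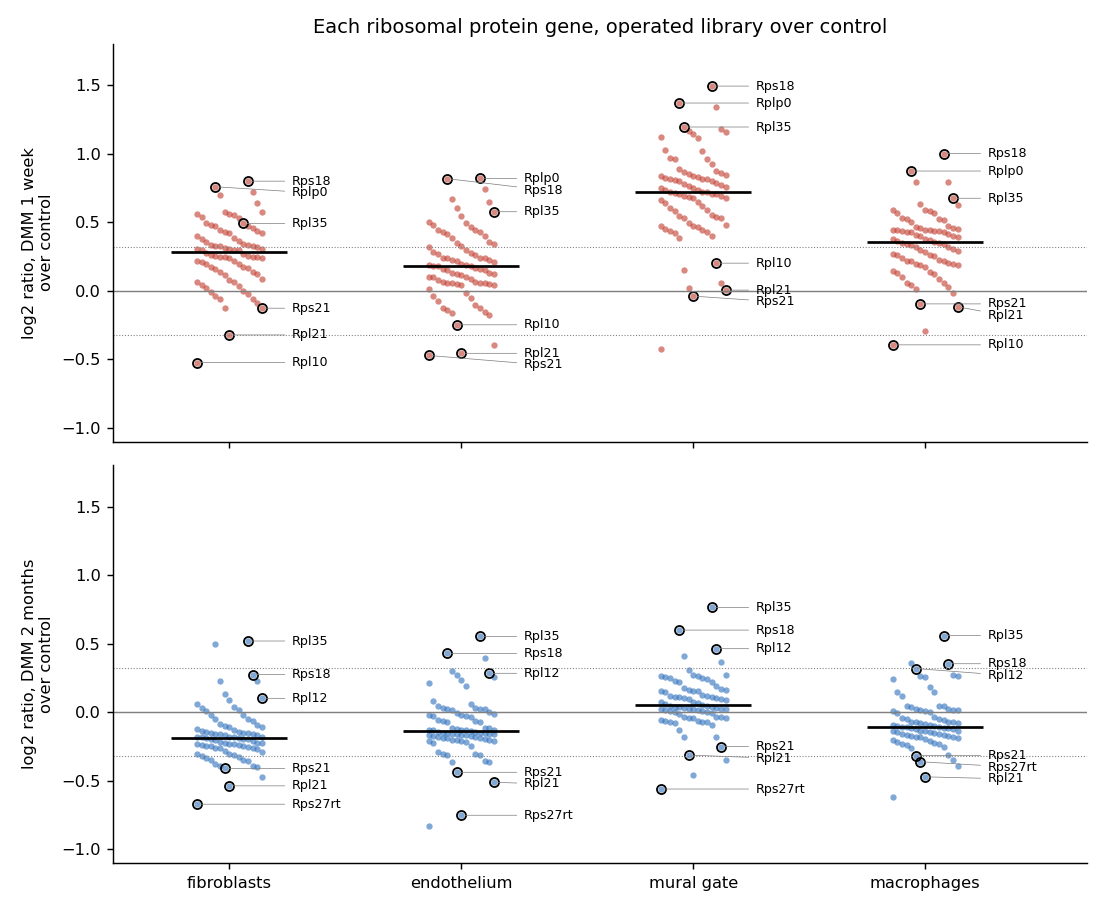
Log2 CPM ratio (vertical axes) of each of the 84 tested ribosomal protein genes, 1 week over control above and 2 months over control below, by class. Points are genes, black lines are medians, dotted lines mark the fold at which members were counted, and circled points are named. Rps18 and Rpl35 lie above the median and Rpl21 and Rps21 below it in all 8 columns.

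The transcription starts of members at both ends of the range are shown here, so that the pyrimidine run that marks TOP mRNAs can be compared between them. Each line gives bases from 10 before to 20 after the annotated start, in the direction of the gene, from RefSeq promoter windows of build GRCm38.p6. For a gene with several annotated starts, a start with a pyrimidine run was shown if there was one. This applied to Rps21, with 2 starts, and Rpl35a, with 3. Capitals mark the longest run of a C and at least 4 further pyrimidines that begins within 10 bases of the start.
Rps18 (chr17:33955646-33955675, minus strand): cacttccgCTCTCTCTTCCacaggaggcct
Rpl15 (chr14:18270967-18270996, minus strand): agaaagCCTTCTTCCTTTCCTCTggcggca
Rpl35 (chr2:39005112-39005141, minus strand): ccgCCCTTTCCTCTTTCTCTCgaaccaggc
Rpl12 (chr2:32961702-32961731, plus strand): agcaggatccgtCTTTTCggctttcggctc
Rplp0 (chr5:115559457-115559486, plus strand): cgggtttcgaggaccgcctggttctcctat
Rpl35a (chr16:33056472-33056501, plus strand): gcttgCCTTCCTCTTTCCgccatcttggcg
Rps21 (chr2:180257369-180257398, plus strand): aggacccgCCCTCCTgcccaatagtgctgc
Rpl10 (chrX:74270806-74270835, plus strand): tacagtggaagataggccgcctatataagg
Rps18, Rpl15, Rpl35 and Rpl12, high at 1 week, carry runs of 11, 17, 18 and 6 pyrimidines. Rpl35a and Rps21, low in fibroblasts, carry runs of 13 and 7. Neither Rplp0, which was high, nor Rpl10, which was low, has such a run at this annotated start. Over the 66 members found in the table, 40 (60.6%) had such a run at any of their starts, against 33.3% of the 27025 genes of the table, counted alike. The 38 tested members with the run had a median log2 ratio of 0.28 at 1 week in fibroblasts and the 26 without it 0.27. At 2 months the medians were -0.21 with the run and -0.16 without it.

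In the 300 bases of the same windows, counting a gene if any of its windows matched, motifs were sought on either strand. CCGGAAG, the core bound by ETS family factors, was found in 39.4% of members, against 9.93% of all genes in the table. The letters CCGCCAT, part of the motif of the factor YY1, were in 16.7% against 4.69%, GGGCGG, the GC box, in 62.1% against 38.2%, and the TATA box TATAAA in 10.6% against 15.7%. These are matches of letters in a window, not sites shown to be bound. The stretch before the start of Rps18 is shown with the CCGGAAG match in capitals, since Rps18 had the highest ratio at 1 week in fibroblasts, the mural gate and macrophages.
Rps18 upstream (chr17:33955666-33955815, minus strand): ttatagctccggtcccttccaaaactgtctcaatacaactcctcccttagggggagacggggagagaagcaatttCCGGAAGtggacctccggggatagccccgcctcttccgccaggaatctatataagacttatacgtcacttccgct

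Rps18, a protein of the head of the small subunit, had 2113 CPM at 1 week, 1468 CPM at 2 months and 1214 CPM in the control in fibroblasts. The 1-week value was the highest and the control the lowest, with ratios to the control of 1.74 (1.73 to 1.76) and 1.21 (1.20 to 1.22). In endothelium it had 2579 CPM at 1 week, 1970 CPM at 2 months and 1463 CPM in the control. Macrophages had 1838, 1173 and 919 CPM, and the mural gate 2182, 1174 and 775 CPM, in the same order of libraries. All 4 classes thus ranked the libraries alike for Rps18. Among ribosomal protein UMIs of fibroblasts it made up 1.31%, 1.27% and 0.907%, so its part of the ribosomal protein transcripts was also larger in both operated libraries. In barcodes that failed the filter, Rps18 had 965 CPM at 1 week, 721 CPM at 2 months and 590 CPM in the control, a similar order outside the cells analysed.

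Rplp0, the protein at the base of the stalk that recruits elongation factors, had 3685 CPM at 1 week, 1977 CPM at 2 months and 2178 CPM in the control in fibroblasts, ratios of 1.69 (1.68 to 1.70) and 0.908. Its ratio at 1 week was 1.76 in endothelium, 2.58 in the mural gate and 1.83 in macrophages. The other stalk proteins had lower ratios. Rplp1 had 3954, 3063 and 3750 CPM in fibroblasts at 1 week, at 2 months and in the control, a 1-week ratio of 1.055 (1.049 to 1.060). Rplp2 had 1341, 1180 and 1401 CPM, ratios of 0.957 and 0.842. In endothelium Rplp1 and Rplp2 were below the control at 1 week, at 0.907 and 0.885, while Rplp0 had one of the 2 highest ratios there. Mural-gate Rplp1 had 3562 CPM at 1 week and 2396 CPM at 2 months against 2466 CPM in the control, a 1-week ratio of 1.44, and Rplp2 a ratio of 1.04. In macrophages the 1-week ratios were 0.988 for Rplp1 and 1.01 for Rplp2. Rpsa, a small-subunit protein that is also known as the laminin receptor, had 2832, 1712 and 1951 CPM in fibroblasts, a 1-week ratio of 1.45, and 2.53 in the mural gate.

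Rpl15 and Rpl29, of the large subunit, were high at 1 week and near the control at 2 months in fibroblasts. Rpl15 had 2047 CPM at 1 week, 1268 CPM at 2 months and 1259 CPM in the control in fibroblasts, ratios of 1.63 (1.61 to 1.64) and 1.01. Rpl29 had 1222, 738 and 783.5 CPM, ratios of 1.56 and 0.942. Their lowest 1-week ratios among the 4 classes were both 1.48, in macrophages. Rpl41, which encodes a very short peptide, was among the 5 members with the highest mean CPM in fibroblasts, with 4800, 2673 and 3329 CPM at 1 week, at 2 months and in the control. Rpl13, also among these 5, was nearer to the control at 1 week, with 3556, 2838 and 3397 CPM. Rps19, a small-subunit protein mutated in Diamond-Blackfan anaemia in humans, had 2290, 1511 and 1564 CPM in fibroblasts and 2175, 1288 and 1252 CPM in macrophages, where its 1-week ratio was 1.74. Rps2 in macrophages had 2021, 1304 and 1709 CPM, above the control at 1 week and below it at 2 months. UMIs were read at the transcript's tail, so these levels were not scaled by length.

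Rpl35, beside the tunnel through which the new protein leaves the ribosome, was high at both times. It had 815 CPM at 1 week, 831 CPM at 2 months and 580 CPM in the control in fibroblasts, ratios of 1.41 (1.39 to 1.42) and 1.43 (1.41 to 1.45). The 2-month ratio was 1.47 in endothelium, 1.70 in the mural gate and 1.47 in macrophages, the highest of the tested members in each class. Rpl12, at the base of the stalk, had 1598, 1151 and 1073 CPM in fibroblasts, ratios of 1.49 and 1.07. Rpl31 had 635, 503 and 431 CPM, ratios of 1.48 and 1.17. Rps25, a small-subunit protein, was near the control in fibroblasts (1.13 at 1 week and 1.09 at 2 months) and reached 1.28 at both times in macrophages. GENCODE names 24 pseudogene copies of Rpl31, 14 of Rps19 and 15 of Rpl21. None of these named copies is a feature of the files, so no UMIs were counted for them. Whether reads that match both a gene and a copy affected these counts was not tested.

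Rpl10 showed the opposite pattern at 1 week. It had 1174 CPM at 1 week, 1435 CPM at 2 months and 1688 CPM in the control in fibroblasts, ratios of 0.696 (0.689 to 0.702) and 0.850. It was also below the control at 1 week in endothelium (0.842) and macrophages (0.761), but not in the mural gate, with 1170, 1225 and 1018 CPM at 1 week, at 2 months and in the control. In failed barcodes it was above the control at both times, at 569 and 614 CPM against 497 CPM. Rpl10-ps3, a pseudogene feature of the files outside the 86, had 13.5, 12.8 and 25.8 CPM in fibroblasts, lower in both operated libraries as Rpl10 was.

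Rpl21 and Rps21 were low at both times. Rpl21, a large-subunit protein, had 1929 CPM at 1 week, 1661 CPM at 2 months and 2412 CPM in the control in fibroblasts, ratios of 0.800 and 0.689. Rps21, of the small subunit, had 2059, 1692 and 2249 CPM, ratios of 0.915 and 0.752. In endothelium Rps21 had 2283 CPM at 1 week and 2336 CPM at 2 months against 3167 CPM in the control, a wider gap than in fibroblasts. In the mural gate, where 77 members were higher, Rpl21 had a ratio of 1.00 (0.980 to 1.03) and Rps21 0.973 at 1 week. Rpl35a was close to Rps21, with 2204, 1830 and 2405 CPM in fibroblasts. Rps4x, the X-linked form of Rps4, had 2775, 2032 and 2821 CPM, a ratio of 0.984 at 1 week and 0.721 at 2 months. Rps20 was at 0.758 and Rps24 at 0.779 at 2 months, both above the control at 1 week (1.21 and 1.09).

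**Figure D4:**
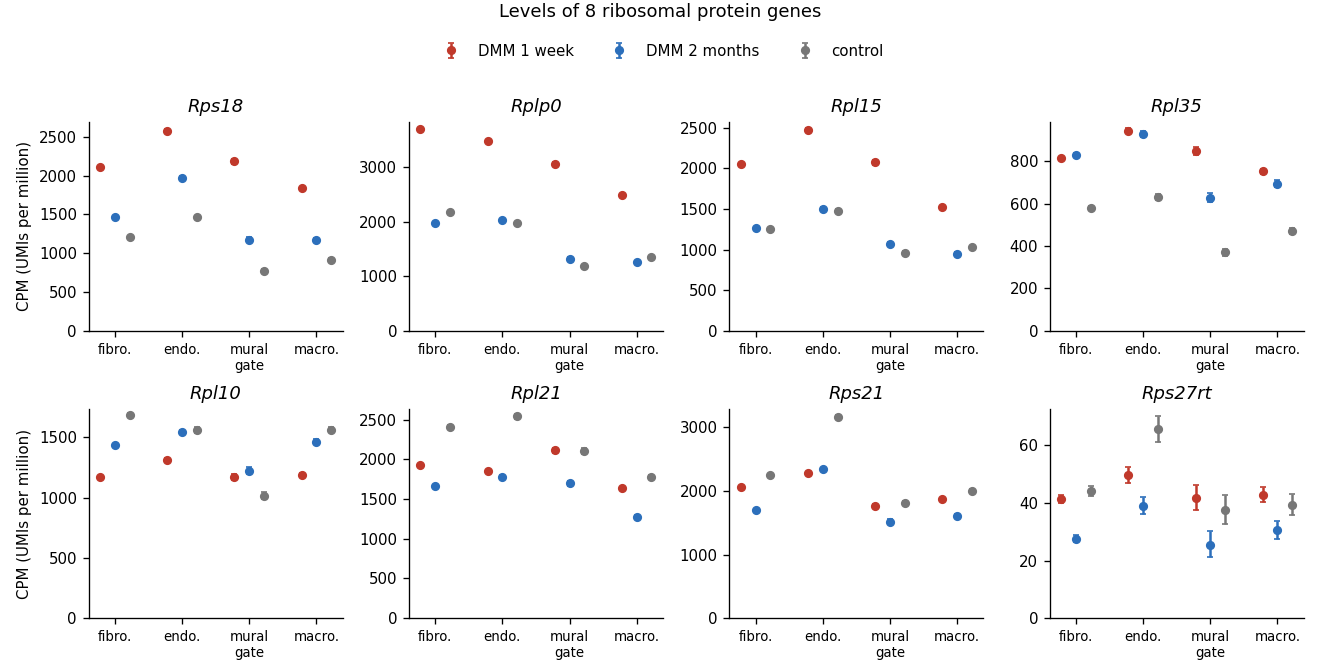
CPM (vertical axes, from 0) of 8 ribosomal protein genes in 4 classes, by library; bars are exact 95% Poisson intervals, mostly smaller than the points. Rps18 ranks 1 week, 2 months, control in every class, Rpl35 is high in both operated libraries, and Rpl21 is lowest at 2 months in every class.

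Several paralogs had ratios unlike those of their parents. Rpl22l1, a paralog of Rpl22 whose levels are coupled to it, had 847 CPM at 1 week, 497 CPM at 2 months and 514 CPM in the control in fibroblasts, a 1-week ratio of 1.65 (1.63 to 1.67). Rpl22 itself had 994, 847 and 1001 CPM, a ratio of 0.992 (0.982 to 1.00) at 1 week and 0.846 at 2 months. The Rpl22l1 ratio at 1 week was 1.57 in endothelium, 1.79 in the mural gate and 1.36 in macrophages, against 1.03, 1.45 and 1.04 for Rpl22. Rps27l, a p53-responsive paralog of Rps27, had 365 CPM at 1 week and 347 CPM at 2 months against 245 CPM in the control, ratios of 1.49 and 1.41, while Rps27 had 1578, 1293 and 1410 CPM. Rps27rt, a retrogene of Rps27, had 41.4, 27.6 and 44.0 CPM, and its 2-month ratio of 0.628 (0.594 to 0.664) was the lowest of the members in fibroblasts. Counts of a retrogene and its parent can be split between them, so this value is uncertain.

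Rpl39l, a paralog of Rpl39 known from the testis, was rare, at 20.6, 12.9 and 13.9 CPM in fibroblasts at 1 week, at 2 months and in the control. Its 1-week ratio of 1.48 (1.35 to 1.61) was above the 1.32 of Rpl39. In macrophages it had 3.76, 3.002 and 4.62 CPM, and its interval at 1 week (0.573 to 1.17) included 1. Rpl7l1, a relative of Rpl7, had 64.2, 53.4 and 58.4 CPM in fibroblasts, and in the mural gate 54.4 and 53.1 CPM against 73.1 CPM in the control, the one member lower there at 1 week. Rps19bp1 had 34.7, 27.6 and 28.1 CPM in fibroblasts. Rpl3 and Rpl7, the other parents, had 1-week ratios of 1.30 and 1.13.

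The mural gate needs its own account, because its cells were not the same mix in each library. Cells with at least 3 UMIs of Rgs5, a pericyte gene, were 75.7% of the gate at 1 week (538 cells), 49.4% at 2 months (209 cells) and 25.2% in the control (175 cells). Such a gate also picks deeper cells, and the median cell of the mural gate had 11025, 11252 and 7956 UMIs in the same order. The part of depth in these percentages was not tested. The Rgs5 split was chosen after the data had been seen. In the Rgs5 cells the ribosomal protein share was 15.7% at 1 week, 9.98% at 2 months and 10.2% in the control. The ratios to the control were 1.54 and 0.979. The direction at 2 months was thus the reverse of the 1.04 of the whole gate. Fibroblast markers in these cells summed to 8245, 5405 and 1997 CPM, so the excess at 1 week was present there too, and its part in the result was not tested. The macrophage gate held 4 neutrophil markers at 692, 4430 and 72 CPM in sum, and the endothelium gate 4 haemoglobin genes at 381, 384 and 2138 CPM, in the same order of libraries.

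Genes around the ribosome were compared in 9 further lists. Host genes of small nucleolar RNAs, which guide modification of ribosomal RNA and include known TOP transcripts, were highest: 9 of 12 were higher and 1 lower at 1 week in fibroblasts, with a median log2 ratio of 0.46, beside 30.4% and 28.5% of all genes. Snhg6 had 68.4 CPM at 1 week against 25.98 CPM in the control, a ratio of 2.63 (2.48 to 2.79), and Snhg18 245 against 116 CPM. At 2 months the list had 1 higher and 4 lower members, beside 23.6% and 18.5%, a median of -0.13. In macrophages its median at 1 week was also -0.13, with 4 higher and 3 lower, beside 25% and 31.7% of all genes.

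The other known TOP mRNAs, elongation factors among them, were centred lower than the ribosomal proteins at 1 week. Of 20, 6 were higher and 2 lower in fibroblasts, beside 30.4% and 28.5% of all genes, a median log2 ratio of 0.05. The share higher was thus that of all genes. Eef1g, of the elongation factor complex, had 446 CPM at 1 week against 248 CPM in the control. At 2 months 7 were lower and 0 higher, beside 18.5% and 23.6% of all genes, a median of -0.24. Eef2, which moves the ribosome along the mRNA, had 490 CPM at 2 months against 820 CPM in the control, a ratio of 0.598 (0.590 to 0.606). In the mural gate 16 of the 20 were higher at 1 week, beside 32.9% of all genes, with a median of 0.54.

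Initiation and elongation factors had 13 of 32 members higher and 3 lower at 1 week in fibroblasts, beside 30.4% and 28.5% of all genes, a median log2 ratio of 0.20. At 2 months 1 was higher and 1 lower, beside 23.6% and 18.5%. Eif3i, a subunit of the initiation factor complex, had 221 against 158 CPM at 1 week, and Eif4e, the cap-binding protein, was lower at both times, at 113 and 92.5 CPM against 146 CPM. Genes of ribosome biogenesis, which make and process ribosomal RNA, had 12 of 48 higher and 3 lower at 1 week, beside 30.4% and 28.5% of all genes, and a median of 0.03 against 0.02. At 2 months 3 of the 48 were higher and 7 lower, beside 23.6% and 18.5% of all genes, and their median was -0.14 against 0.02. Nhp2, of the RNA-modifying particles, had 87.6 CPM at 1 week against 46.5 CPM in the control, and Nop58 98.8 and 94.9 CPM at 1 week and 2 months against 145 CPM. The mitochondrial ribosome, a separate machine, had 22 of 78 genes higher and 4 lower at 1 week in fibroblasts, beside 30.4% and 28.5% of all genes, a median of 0.21. The share higher was close to that of all genes, and the share lower was smaller. At 2 months 5 were higher and 3 lower, beside 23.6% and 18.5%. In the mural gate at 1 week it went the other way, with 6 higher and 30 lower, beside 32.9% and 32.9% of all genes, and a median of -0.19.

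**Figure D5:**
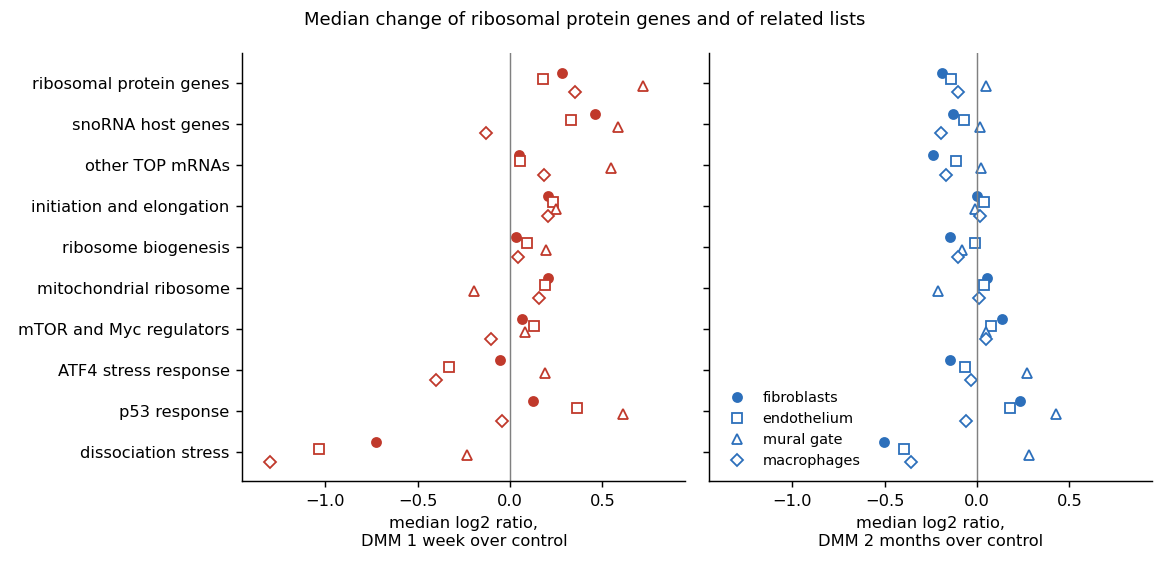
Median log2 CPM ratio (horizontal axes) of the ribosomal protein genes and of 9 related lists, 1 week over control at left and 2 months over control at right. Symbols are the 4 classes, filled for fibroblasts. At 1 week the ribosomal protein medians are above 0 in all 4 classes, whereas genes of dissociation stress are below 0 in all 4, and at 2 months below 0 in all but the mural gate.

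Among regulators of growth, 7 of 25 genes of the mTOR and Myc systems were higher and 4 lower at 1 week in fibroblasts, beside 30.4% and 28.5% of all genes. At 2 months 6 were higher and 1 lower, beside 23.6% and 18.5%, so the share higher was close to that of all genes at both times. Myc, the transcription factor that drives ribosome production, had 43.9 CPM at 1 week and 63.2 CPM at 2 months against 101 CPM in the control, ratios of 0.432 and 0.623. Ddit4, an inhibitor of mTOR, had 86.6 and 39.1 CPM against 20.3 CPM, ratios of 4.26 and 1.92. Of 8 genes of the p53 response, 3 were higher and 1 lower at 1 week, beside 30.4% and 28.5%, and 4 higher and 1 lower at 2 months, beside 23.6% and 18.5%. The lower one, Cdkn1a, the cell cycle inhibitor, had 142 and 288 CPM against 578 CPM. Of 12 tested genes of the ATF4 stress response, 3 were higher and 5 lower at 1 week, and 2 higher and 4 lower at 2 months, beside the same shares of all genes. Atf5, a stress-induced transcription factor, had 54.2 and 126 CPM against 235 CPM.

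The list of genes known to be induced by tissue dissociation was lower in the operated libraries: 17 of 20 were lower and 0 higher at 1 week in fibroblasts, a median log2 ratio of -0.73, and 14 were lower and 0 higher at 2 months, a median of -0.50, beside 28.5% and 18.5% of all genes. Their sum was 9122 CPM at 1 week and 11126 CPM at 2 months against 15442 CPM in the control. Hspa1a, the inducible heat-shock protein, had 55.7 CPM at 1 week and 97.9 CPM at 2 months against 263 CPM. The sum was lower at both times in fibroblasts, while the ribosomal protein share was higher at 1 week and lower at 2 months, and the part of dissociation in the shares was not tested.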

How the data were processed

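The authors deposited whole-number UMI counts per gene and barcode, not normalised, for 3 libraries. Per the file headers these were written by Cell Ranger 5.0.0 (1 week, control) and 5.0.1 (2 months), and the submitters' processing notes name version 6.0.1 and build mm10. Libraries held 179561680 (1 week), 159333121 (2 months) and 96782789 (control) UMIs in 13986, 10799 and 9003 barcodes. Tissue was digested in 0.25% trypsin for 30 min and collagenase at 300 U/mL for 30 min, per the labels' protocols.

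Counts were summed over the cells of a class in each library and divided by the class total. Shares have exact Clopper-Pearson, CPM exact Poisson and ratios exact conditional binomial 95% intervals. The ratio intervals were run on simulated Poisson counts, the model they assume. That run held no spread between cells, mice or libraries, so it checks the code and not the fit to real data. A gene entered a comparison if both sums together held 50 UMIs or more, and was counted when 1 library was at least 25% above the other. Named members needed 200 UMIs and 20 CPM: the 5 highest and 5 lowest ratios in fibroblasts and 3 and 3 in the other classes, the 5 most abundant, the stalk proteins, Rpsa and paralogs with their parents; each list gave its 2 highest and 2 lowest. Some genes this rule names are not reported here. Members, lists and rules were chosen with earlier results of these data known. Doublets were kept; Scrublet marked 507, 460 and 313 barcodes (4.12%, 4.70% and 3.86%). Starts came from a RefSeq promoter table, which matched 66 of 86 members, and gene models from GENCODE vM21. Alternatives are listed in the closing section. Software was Python 3.11.15, numpy 2.4.6, scipy 1.17.1, pandas 2.3.3, scanpy 1.11.5 and matplotlib 3.10.9.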

Additional observations from a re-analysis of the deposited data

Results flagged for a closer look

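The ratio of the ribosomal protein share at 2 months over the control lay above 1 in the mural gate (1.041) and below 1 in fibroblasts (0.867), endothelium (0.9161) and macrophages (0.9341), a difference in direction between cell classes. Rpl7l1 at 1 week over the control was also on opposite sides, at 1.268 in macrophages and 0.7443 in the mural gate. With 1 library per group neither difference was tested.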

How the results depend on the processing

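No paired analysis was possible because each group was 1 library, and for the same reason no library could be left out. Counting precision was high, so most share ratios moved outside their counting intervals under other settings. Not all steps were small. Without the 100 most abundant other genes in the denominator, the 1-week ratio went from 1.20 to 1.12 in fibroblasts. In endothelium it went from 1.13 to 1.08, in the mural gate from 1.67 to 1.54, and in macrophages it stayed at 1.26. In the lists that follow, 4 values stand for fibroblasts, endothelium, the mural gate and macrophages. With a floor of 1000 genes and a ceiling of 5% mitochondrial UMIs, the ratios of the share were 1.20, 1.13, 1.62 and 1.26 at 1 week over the control, 0.867, 0.897, 1.04 and 0.953 at 2 months over the control and 0.725, 0.795, 0.642 and 0.755 at 2 months over 1 week. They were 1.20, 1.13, 1.67 and 1.26, then 0.865, 0.917, 1.03 and 0.942, then 0.721, 0.809, 0.618 and 0.749 with Scrublet doublets removed. With stricter class gates, they were 1.16, 1.12, 1.66 and 1.255, then 0.841, 0.911, 1.04 and 0.932, then 0.727, 0.814, 0.630 and 0.743. They were 1.20, 1.14, 1.68 and 1.27, then 0.866, 0.917, 1.04 and 0.941, then 0.720, 0.808, 0.623 and 0.740 with barcodes of 1 class only. With mitochondrial UMIs out of the denominator, they were 1.23, 1.15, 1.66 and 1.28, then 0.883, 0.930, 1.05 and 0.955, then 0.719, 0.807, 0.632 and 0.748. They were 1.21, 1.22, 1.645 and 1.30, then 0.895, 1.00, 1.08 and 0.967, then 0.743, 0.820, 0.654 and 0.746 with equal weight for every cell. With cells thinned to 3000 UMIs, they were 1.21, 1.16, 1.64 and 1.27, then 0.890, 0.947, 1.07 and 0.945, then 0.739, 0.816, 0.652 and 0.744. They were 1.18, 1.13, 1.61 and 1.255, then 0.901, 0.922, 1.03 and 0.946, then 0.762, 0.819, 0.640 and 0.753 with cells of 5000 to 20000 UMIs only. With cells with Mki67 or Top2a UMIs left out, they were 1.22, 1.16, 1.64 and 1.27, then 0.868, 0.920, 1.04 and 0.934, then 0.712, 0.797, 0.635 and 0.736. They were 1.12, 1.08, 1.54 and 1.26, then 0.868, 0.902, 1.02 and 0.943, then 0.778, 0.836, 0.665 and 0.745 with the 100 most abundant other genes out of the denominator. In mural cells with at least 3 Rgs5 UMIs, they were 1.54, 0.979 and 0.636 in these comparisons, a setting chosen after seeing the data, as was the one without abundant genes. Equal weight took the ratio in endothelium at 2 months to 1.00, and Rgs5 reversed the direction in the mural gate at 2 months. The causes were not tested.

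Counts of members past the fold that moved by over 1.5 times were these. At a fold of 1.5, 5, 6 and 9 were higher at 1 week in fibroblasts, endothelium and macrophages, 1, 2, 0 and 1 lower at 2 months in fibroblasts, endothelium, mural gate and macrophages, and 20, 12 and 15 lower at 2 months over 1 week in fibroblasts, endothelium and macrophages. Lower at 2 months in fibroblasts were 8 with 5000 to 20000 UMIs and 7 with equal weight or thinning; in endothelium 11 without ribosomal protein UMIs or the abundant genes in the denominator, 12 with median-of-ratios scaling or the strict filter and 4 with equal weight; in the mural gate 1 with equal weight, 0 without paralogs and 5 with Rgs5; and in macrophages 3 with 5000 to 20000 UMIs, equal weight or no paralogs. Higher at 1 week were 20 in fibroblasts without the abundant genes and 37 in endothelium with equal weight.

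The median log2 ratio of members moved to 0.83 in the mural gate at 1 week without ribosomal protein UMIs in the denominator, with median-of-ratios scaling to 0.45 (1 week) and -0.54 (2 months over 1 week) in macrophages, to -0.014 in endothelium at 2 months with equal weight, to -0.35 in fibroblasts at 2 months over 1 week with 5000 to 20000 UMIs, to 0.17 and -0.35 in fibroblasts at 1 week and at 2 months over 1 week and 0.60 in the mural gate at 1 week without the abundant genes, and to 0.60 at 1 week and -0.0147 at 2 months in the mural gate with Rgs5. The p53 list in macrophages at 2 months turned to 0.0072 with no UMI minimum. With at least 2 UMIs of the gate gene, the fibroblast shares at 1 week, at 2 months and in the control were 15.7%, 10.9% and 8.71% for Acan, 11.2%, 9.81% and 10.3% for Clic5, 15.9%, 13.1% and 15.1% for Gdf10, 14.8%, 10.7% and 12.6% for Mki67 or Top2a, 15.9%, 13.0% and 14.0% for Pi16 or Dpp4, 15.7%, 11.7% and 11.4% for Thbs4 (2 months now above the control) and 17.5%, 12.7% and 15.4% for none. For Acta2, gated at 5 UMIs in the main setting, a stricter gate kept 460, 104 and 89 cells. Their shares were 15.4%, 11.3% and 11.8% in the same order of libraries.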
